A study of Canis lupus familiaris with 2 samples.

Results

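Mechanosensitive cation channels are membrane proteins that let cations into a cell when the membrane is stretched, sheared or swollen. The 10 genes described here are PIEZO1, PIEZO2, TRPV4, TRPV2, TRPM7, TRPC1, PKD1, PKD2, TMEM63A and TMEM63B. They were chosen by gene symbol as stretch and pressure sensing channels, by a rule that uses no measured value. Earlier results of these data were known when they were chosen. All 10 are among the 23510 features listed. RNA was sequenced from MDCK cells, an established dog kidney line whose cells form a columnar epithelial sheet. The design has 1 culture under medium 2 cm high, a pressure of 2 cm H2O that the labels describe as none, and 1 culture under medium 50 cm high, a pressure of 50 cm H2O, called 2 cm and 50 cm below. Both were seeded with 40000 cells on a culture insert in Eagle's medium with fetal calf serum and were taken at day 3, and no strain of the line, gene modification or drug is given for either. Values are FPKM, that is, sequenced fragments per kilobase of a gene's exons, scaled to the mapped fragments of the library, so levels of different genes can be compared per length. With 1 culture per medium height there is no replicate error, no difference between the cultures could be tested, and every ratio below is a value of this pair of cultures only. A lower share of cells that use a gene and less RNA per cell cannot be told apart in such bulk RNA.

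PIEZO channels are very large proteins that open on membrane tension and carry calcium into the cell. TRPV4, TRPV2, TRPM7 and TRPC1 belong to the transient receptor potential (TRP) superfamily, whose members respond to heat, swelling, lipids and ions, several of them also to mechanical force. Polycystin-1 and polycystin-2, encoded by PKD1 and PKD2, form a complex in the primary cilium of kidney tubule cells, and mutations of either gene cause autosomal dominant polycystic kidney disease. TMEM63A and TMEM63B are the animal relatives of the plant OSCA channels, which open on osmotic and mechanical stress.

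The markers of the labelled cells were present. Of 10 markers of kidney or simple epithelium, 9 exceeded 1 FPKM in both cultures, and KRT8 had 1641 FPKM at 2 cm and 1561 FPKM at 50 cm. The exception was CDH16, at 1.96 and 0.676 FPKM, and CLDN2 was the only one of the 9 past 2-fold, at 35.5 and 17.2 FPKM. No fibroblast marker of 7 and no endothelial marker of 5 exceeded 1 FPKM, with summed levels of 0.374 and 0.401 FPKM for the first list and 0.474 and 0.277 FPKM for the second at 2 and 50 cm, respectively. The leukocyte-defining PTPRC was listed at 0, and of 5 leukocyte markers only CD14, at 4.82 and 3.77 FPKM, was above 1. Library depth is not known as read numbers. Of 574 features that lay between 0 and 0.1 FPKM at both heights, 219 shared a ratio within 0.2% of 1.0977, from which a single read counted for 9.77% more FPKM at 50 cm.

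Of the 10 channel genes, 8 exceeded 1 FPKM in both cultures, and PIEZO2 and TRPV2 were listed at 0 in both. Above 1 FPKM in both cultures were 11057 of all features (47.0%), and 32.9% of all features were listed at 0 in both. The 8 genes spanned from 1.83 to 33.7 FPKM at 2 cm and from 1.60 to 30.1 FPKM at 50 cm. TRPV4 had the highest level in both cultures and TRPC1 the lowest of the genes above 0, and the level of TRPV4 was 18.4 times that of TRPC1 at 2 cm and 18.9 times at 50 cm. None of the channel genes lay between 0 and 1 FPKM, so the count of 8 did not depend on where the minimum was set within that range.

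**Figure D1:**
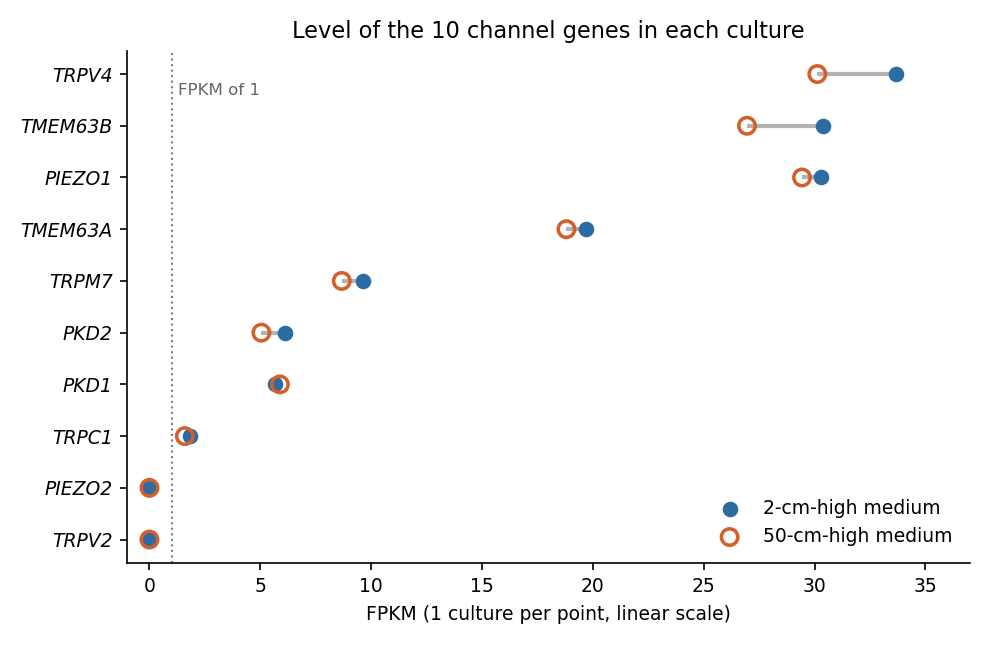
FPKM (linear horizontal axis) of each of the 10 channel genes, ordered by level in 2-cm-high medium, with a filled point for the 2-cm-high-medium culture and an open point for the 50-cm-high-medium culture (1 culture per point, no error bars). TRPV4, TMEM63B and PIEZO1 lie near 30 FPKM in both cultures, PIEZO2 and TRPV2 lie at 0, and the dotted line marks 1 FPKM.

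PIEZO1, the tension-gated channel found in many epithelia and in vessels, had 30.3 FPKM at 2 cm and 29.4 FPKM at 50 cm. The 50-cm over 2-cm ratio was 0.971, a log2 ratio of -0.04, or -0.11 after quantile normalization. PIEZO1 ranked 3324 of 15125 features above 0 at 2 cm and 3564 of 14951 at 50 cm. PIEZO2, known best as the touch and proprioception channel of sensory neurons, was listed at 0 FPKM in both cultures. An entry of 0 does not show by itself that a transcript was absent. Among 60 nuclear genes of oxidative phosphorylation, which every nucleated cell uses, ATP5O was also listed at 0 in both cultures, whereas none of 71 cytosolic ribosomal protein genes was.

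TRPV4, a calcium-permeable channel that opens on cell swelling and warmth, had 33.7 FPKM at 2 cm and 30.1 FPKM at 50 cm. Its ratio was 0.894 (log2 ratio -0.16). TRPV4 exceeded PIEZO1 by a factor of 1.11 at 2 cm and 1.02 at 50 cm, so these channel genes were close in level in both cultures. TRPV2, a TRP channel known from immune cells, muscle and neurons, was listed at 0 FPKM in both cultures.

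TRPM7, a channel for magnesium, zinc and calcium that carries a protein kinase at its end, had 9.65 FPKM at 2 cm and 8.67 FPKM at 50 cm, a ratio of 0.899 (log2 ratio -0.15). The level of TRPV4 was 3.49 times that of TRPM7 at 2 cm and 3.47 times at 50 cm. Both genes thus had nearly the same ratio between the cultures. TRPC1, a subunit that joins other TRPC proteins in receptor- and store-operated channels, had 1.83 FPKM and 1.60 FPKM, respectively, a ratio of 0.871 (log2 ratio -0.20). It had the lowest level of the measured channel genes, and the next gene in order was PKD1 at 2 cm, at 3.09 times its level, and PKD2 at 50 cm, at 3.16 times.

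PKD1, which encodes the large receptor-like polycystin-1, had 5.67 FPKM at 2 cm and 5.88 FPKM at 50 cm. Its ratio of 1.04 (log2 ratio 0.05) was the only one above 1 among the channel genes, with TRPC1 joining it after quantile normalization. PKD2, which encodes polycystin-2, the pore-forming cation channel of the complex, had 6.13 FPKM and 5.05 FPKM, respectively. Its ratio of 0.824 (log2 ratio -0.28) was the lowest among them, although after quantile normalization TMEM63B, at a log2 ratio of -0.23, and TRPV4, at -0.22, lay below PKD2, at -0.19. The order of these partner genes therefore differed between the cultures, with PKD1 at 0.925 times the level of PKD2 at 2 cm and 1.17 times at 50 cm. A quotient of genes within a culture is not changed by the scaling of that library, but without replicates it cannot be said whether this exchange of order exceeds the spread between cultures. The quotients of gene pairs given here were chosen after the values had been seen.

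TMEM63A had 19.7 FPKM at 2 cm and 18.8 FPKM at 50 cm, a ratio of 0.955 (log2 ratio -0.07). TMEM63B had 30.4 FPKM and 27.0 FPKM, respectively, a ratio of 0.888 (log2 ratio -0.17). The level of TMEM63B was 1.54 times that of TMEM63A at 2 cm and 1.43 times at 50 cm. TMEM63B and PIEZO1 had almost equal levels at 2 cm, where PIEZO1 stood at 0.998 of TMEM63B, and PIEZO1 stood at 1.09 times TMEM63B at 50 cm.

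In order of level, the channel genes at 2 cm ran from TRPV4 through TMEM63B, PIEZO1, TMEM63A, TRPM7, PKD2 and PKD1 to TRPC1. In 50-cm-high medium the order was the same except that PIEZO1 stood before TMEM63B and PKD1 before PKD2. No neighbours in either order can be said to differ beyond their spread, since that spread was not measured. The summed level of all 10 genes was 137 FPKM at 2 cm and 127 FPKM at 50 cm. TRPV4 made up 24.5% and 23.8% of this sum, TMEM63B 22.1% and 21.3%, and PIEZO1 22.1% and 23.3%, respectively, so that these genes together supplied most of the channel gene level in both cultures.

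None of the 8 measured channel genes passed 2-fold, where 1.67% of the 11057 features above 1 FPKM in both cultures did, 0.389% higher and 1.28% lower at 50 cm. None passed 1.5-fold either, where 7.19% of the features did. With 8 genes, a count of 0 lies near what these background shares give and is no result about the channels. A ratio below 1 was found for 7 channel genes, or for 6 after quantile normalization, which gave TRPC1 a log2 ratio of 0.03, and 47.4% of the 11057 features had such a ratio. The median log2 ratio of the 8 genes was -0.16, compared with 0.01 over the 11057 features. The ratios ran from 0.824 to 1.04.

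The features above 1 FPKM in both cultures were divided into 10 equal groups by mean log2 FPKM, and the 10th and 90th percentiles of the log2 ratio were taken in each. All 8 channel genes lay within these limits of their own group. By construction, about 20% of features lie outside such limits, and 20.1% of the 11057 features did. With 8 genes, having none outside lies near that share and is no result about the channels. PKD1 and PKD2 shared a group whose limits were -0.48 and 0.32, and PIEZO1 and TMEM63B shared one with limits of -0.24 and 0.33. TRPV4 came nearest to the lower limit by position, with 13.9% of the features of its group at lower log2 ratios. For TMEM63B this share was 15.8%, for PKD2 21.6%, for TMEM63A 29.7% and for TRPM7 30.5%. It was 32.1% for PIEZO1, 46.7% for TRPC1 and 62.8% for PKD1. These limits describe the spread across genes in this pair of cultures and are not replicate error.

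**Figure D2:**
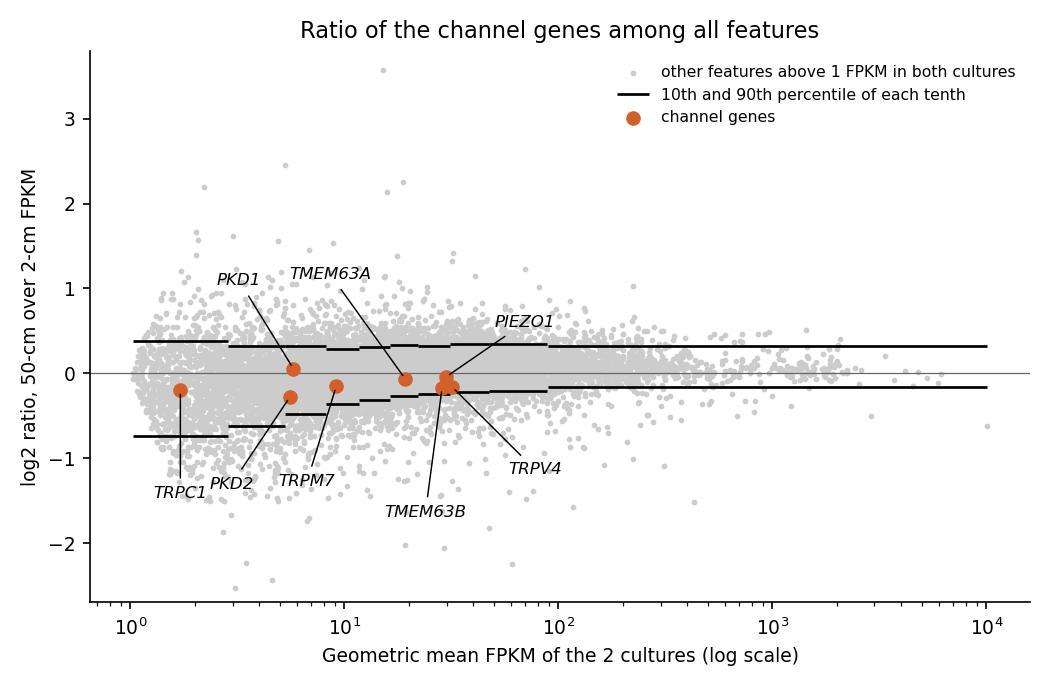
log2 ratio of 50-cm over 2-cm FPKM (vertical axis) against the geometric mean FPKM of the cultures (horizontal axis, log scale) for the 11057 features above 1 FPKM in both cultures (grey), with the 8 measured channel genes in orange. Black lines are the 10th and 90th percentiles within each of 10 groups of equal size by level, and all 8 channel genes lie between them, from -0.28 for PKD2 to 0.05 for PKD1.

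Genes that overlap at a locus may share reads where strand is not used in counting, and the libraries were stranded but the counting setting is not stated. In the RefSeq annotation of another dog assembly, UU_Cfam_GSD_1.0, 7 of the 10 channel genes overlap another annotated gene, and TRPV4, TRPC1 and PKD1 do not. For PIEZO2, TRPM7 and PKD2 the overlapping entries are only long noncoding RNAs or a pseudogene. TRPV2 overlaps LRRC75A, a protein-coding gene that is not among the listed features. TMEM63B overlaps MRPL14, a mitochondrial ribosomal protein gene with 120.2 FPKM at 2 cm and 119.6 FPKM at 50 cm, a level above that of TMEM63B. PIEZO1 overlaps CTU2, a tRNA modification gene with 15.9 and 19.7 FPKM, respectively, and TMEM63A overlaps EPHX1, an epoxide hydrolase gene with 0.829 and 0.431 FPKM. The part of these neighbours in the channel gene values was not tested.

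The other genes of the channel families were examined from a list of 25 relatives. Above 1 FPKM in both cultures were 7 of them, 9 were listed at 0 in both, 1 was above 1 in a single culture and 8 were lower still. No relative above 1 FPKM in both cultures passed 1.5-fold, where 7.19% of all features above that minimum did. With 7 genes this count lies near that share and is no result about the families. Of the 7 relatives, 2 had a ratio above 1 and 5 below 1, where 47.4% of those features were below 1. The median log2 ratio of the 7 relatives was -0.09, compared with 0.01 over those features. TRPA1, a channel of sensory nerve endings that opens on irritant chemicals, had the highest mean level of the relatives, with 41.1 FPKM at 2 cm and 27.5 FPKM at 50 cm. Its ratio of 0.669 (log2 ratio -0.58) was the lowest of the list and lay below the 10th percentile of its group, which was -0.22. TRPA1 stood at 1.22 times the level of TRPV4 at 2 cm and 0.912 times at 50 cm. TRPV4 was thus the second TRP gene by level at 2 cm and the first at 50 cm.

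MCOLN1, the calcium and iron channel of lysosomes, was next to TRPA1 in mean level, at 10.98 FPKM at 2 cm and 10.3 FPKM at 50 cm. PKD2L2, a relative of polycystin-2, had the highest ratio of the relatives, 1.10, at 2.51 and 2.76 FPKM, respectively. PKD2 stood at 2.44 times PKD2L2 at 2 cm and 1.83 times at 50 cm, so polycystin-2 had the higher level in both. The following relatives were singled out after their values had been seen. TMEM63C, the third gene of its family, had 2.44 and 2.07 FPKM (ratio 0.850), well under TMEM63A and TMEM63B. TRPM3, a heat- and steroid-sensitive relative of TRPM7, had 7.76 and 5.41 FPKM (ratio 0.698, log2 ratio -0.52), also below the 10th percentile of its group. TRPA1 and TRPM3 were the only 2 of the 7 relatives above 1 FPKM in both cultures outside their group limits. Over all features above that minimum, 20.1% lay outside theirs. TRPM6, the close relative of TRPM7 that serves magnesium uptake in the kidney and gut, was above 1 FPKM at 2 cm only, at 1.15 and 0.586 FPKM.

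**Figure D3:**
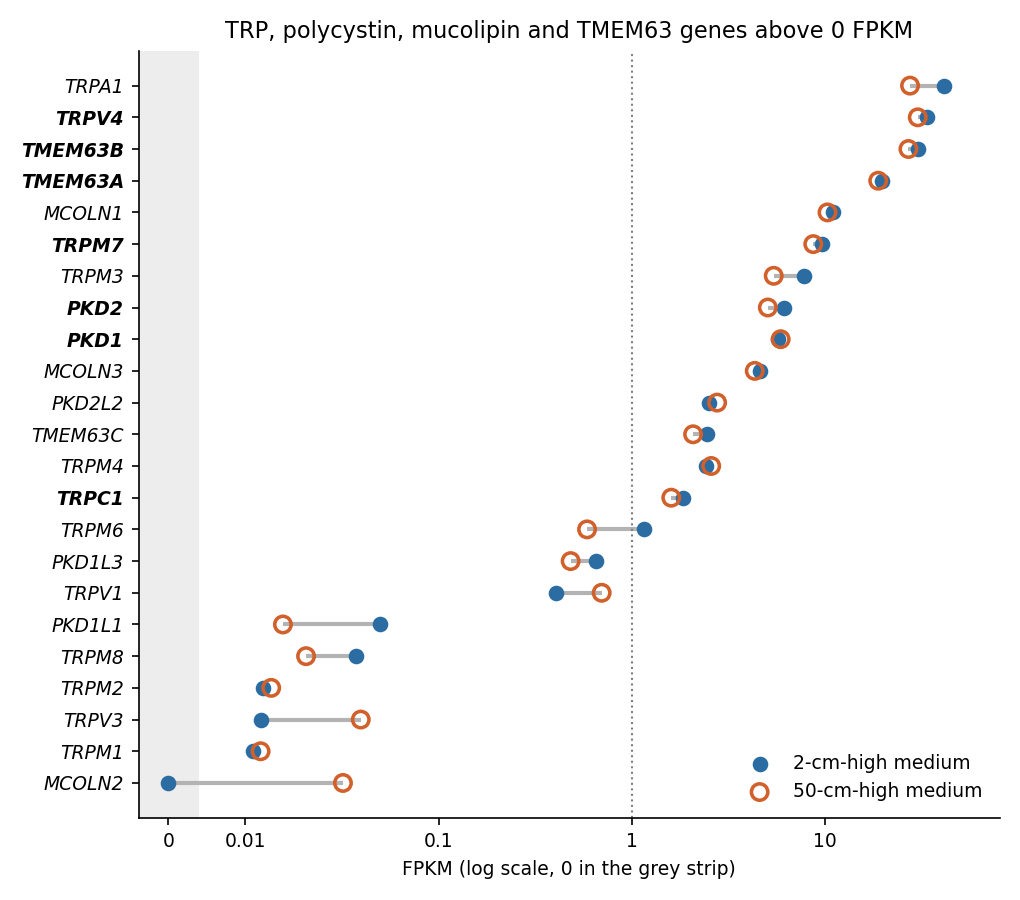
FPKM (horizontal axis, log scale, with values of 0 drawn in the grey strip) of the TRP, polycystin, mucolipin and TMEM63 genes above 0 in at least 1 culture, ordered by level in 2-cm-high medium, with members of the channel gene set in bold. Filled points are the 2-cm-high-medium culture and open points the 50-cm-high-medium culture (1 culture per point), TRPA1 heads the order at 41.1 FPKM, and the dotted line marks 1 FPKM.

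Of 20 genes named TRP among the members and relatives, 6 exceeded 1 FPKM in both cultures and 8 were listed at 0 in both. The lowest relatives lay at the value of a few reads. TRPM1 had 0.0109 FPKM at 2 cm and 0.0120 FPKM at 50 cm, and TRPM2 had 0.0124 and 0.0136 FPKM, both at the ratio of 1.0977 that 1 read in each culture gives. TRPV3, at 0.0120 and 0.0395 FPKM, had the ratio that 1 read against 3 gives, so its 3.29-fold ratio may rest on single reads. Multiples of these read numbers would give the same ratios. No channel gene above 0 lay near such values.

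Proteins that bind or regulate the channels formed a list of 18 genes, of which 17 were in the files and 15 were above 1 FPKM in both cultures. MDFI was the only one past 1.5-fold, where 2.13% of the features above 1 FPKM in both cultures were higher and 5.06% lower by that fold, and none passed 2-fold. MDFI encodes a MyoD-family inhibitor protein that binds PIEZO channels as an auxiliary subunit, and had 14.9 FPKM at 2 cm and 26.5 FPKM at 50 cm, a ratio of 1.78 (log2 ratio 0.83). Its partner PIEZO1 had a ratio of 0.971 in the same cultures. STOM, which encodes stomatin, a membrane protein of the family that modulates PIEZO and acid-sensing channels, had the highest mean level, with 104 and 89.8 FPKM, respectively. DNAJB11, a chaperone of the endoplasmic reticulum needed for polycystin-1 maturation, followed with 76.1 and 94.8 FPKM (ratio 1.25). Of the 15 genes, 9 had a ratio above 1 and 6 below 1, with a median log2 ratio of 0.06. Over all features above 1 FPKM in both cultures, 47.4% had a ratio below 1 and the median log2 ratio was 0.01.

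A list of 21 other mechanically gated or volume-gated channels and their subunits had 11 genes above 1 FPKM in both cultures and 6 listed at 0 in both. TMIE was lower by 2-fold, the only such gene of the list, and 2 of the 11 genes, TMIE and TMC5, were lower by 1.5-fold, where 1.28% and 5.06% of the features above 1 FPKM in both cultures were lower by these folds. TMIE, a subunit of the mechanotransduction complex of inner ear hair cells, had 8.22 FPKM at 2 cm and 2.89 FPKM at 50 cm, a ratio of 0.351 (log2 ratio -1.51). TMC1 and LHFPL5, which belong to the same hair cell complex, were listed at 0 in both cultures. TMC5, of the transmembrane channel-like family, had 3.12 and 1.78 FPKM (ratio 0.571). The highest mean levels were those of TMC6, of the same family, at 34.0 and 38.2 FPKM, and TMEM87A, a Golgi membrane protein, at 33.7 and 31.5 FPKM. Both lay above TRPV4 and PIEZO1 in both cultures, TMEM87A by little at 2 cm. A place in this list does not mean that mechanical gating is established for the protein, and gating was not tested here. Of the 11 genes, 4 had a ratio above 1 and 7 below 1, with a median log2 ratio of -0.10. Over all features above 1 FPKM in both cultures, 47.4% had a ratio below 1 and the median log2 ratio was 0.01. Outside their group limits lay 4 of the 11 genes, where 20.1% of those features did. Whether this list differs from those features was not tested.

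The 36 genes of calcium handling and calcium response, from store-operated entry channels and pumps to calcium-binding proteins, included 31 above 1 FPKM in both cultures. None passed 2-fold, and ORAI2 was the only one lower by 1.5-fold, a share of the 31 that lies under the 5.06% over the features above 1 FPKM in both cultures. ORAI2, a pore subunit of store-operated calcium channels, had 9.09 FPKM at 2 cm and 5.85 FPKM at 50 cm (ratio 0.644, log2 ratio -0.64). A further 2 genes of the list were above 1 FPKM in a single culture and so were not counted. Among them was NFATC4, at 1.73 FPKM at 2 cm and 0.515 FPKM at 50 cm (ratio 0.298). The highest levels were those of S100A6, at 4801 and 4321 FPKM, and S100A11, at 1003 and 1209 FPKM, both small calcium-binding proteins. Of the 31 genes, 19 had a ratio above 1 and 12 below 1, with a median log2 ratio of 0.12. Over all features above 1 FPKM in both cultures, 47.4% had a ratio below 1 and the median log2 ratio was 0.01. Whether the calcium genes differ from these features was not tested. STIM1 and ITPR3 are in this list and in that of the channel partners.

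**Figure D4:**
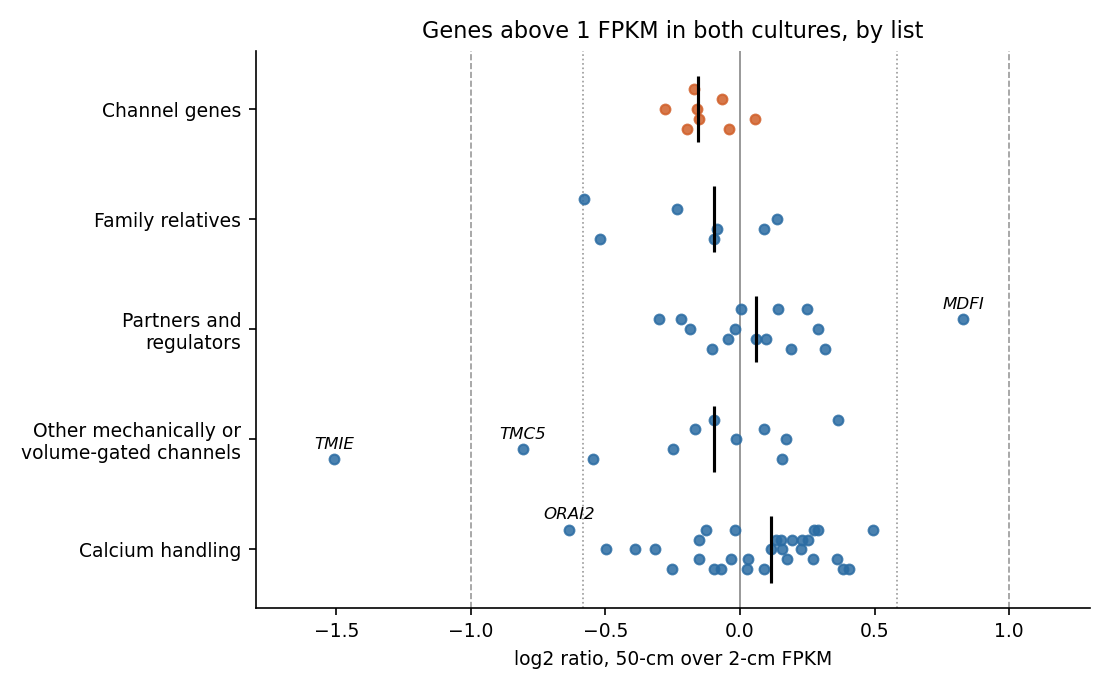
log2 ratio of 50-cm over 2-cm FPKM (horizontal axis) for each gene above 1 FPKM in both cultures, by gene list (rows), with black bars at the list medians, dotted lines at 1.5-fold and dashed lines at 2-fold. The 8 channel genes all lie inside the 1.5-fold lines, and the genes past them in the other lists, MDFI, TMIE, TMC5 and ORAI2, are labelled.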

How the data were processed

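The authors prepared stranded mRNA libraries from total RNA, sequenced single-end reads on a HiSeq platform, used TopHat 2.0.13 to map them to CanFam3.1, and made the deposited FPKM values in Cuffnorm 2.2.1. Bowtie 2 (version 2.2.3) and SAMtools (version 0.1.19) served the mapping. The annotation, the scaling method and the use of strand in counting are not given in the sources used here. Each culture has 1 value per gene symbol and no counts.

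No pseudocount was added before the 50-cm over 2-cm ratio was taken, and a feature had to exceed 1 FPKM at both heights, which is the minimum that the study used. Thresholds were 2-fold and 1.5-fold. At this minimum, 185 of 11057 features passed 2-fold here. The study reports a larger number of genes at the same stated minimum and fold, and the reason for the difference was not tested. No test was run, since each group is 1 culture. The members and gene lists were chosen with earlier results of these data known. Named are all 10 channel genes and, in each other list, the genes above 1 FPKM in both cultures that passed 1.5-fold, the 2 with the highest mean FPKM and, where none passed, those with the highest and lowest ratio. Marker genes and genes said to be chosen after their values were seen are further exceptions, as are the genes at 0 or at a few reads, the overlapping genes, the genes held by 2 lists, and NFATC4. A further listed gene is not reported here. The scripts were tested on simulated data. RefSeq was used for overlapping genes only, without coordinates, and no sequences were used. The software was pandas 2.3.3 and numpy 2.4.6 under Python 3.11.15, with matplotlib 3.10.9 for the plots.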

Additional observations from a re-analysis of the deposited data

How the results depend on the processing

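The alternatives were an FPKM minimum of 0.1, 0.5 or 5 in both cultures or of 1 in at least 1 culture, a pseudocount of 0.1 or 1, recentring on the median, quantile normalization and a 1.5-fold threshold. The count of measured channel genes stayed at 8 except at a minimum of 5, which removed TRPC1 and left 7, and no channel gene passed the fold threshold under any of them. The median log2 ratio of the channel genes ran from -0.17 to -0.11. The minima cannot change the ratio of a single gene. Of the 32 log2 ratios of channel genes recomputed with a pseudocount, recentring or quantile normalization, 1 moved by 0.1 or more. This was TRPC1, whose log2 ratio of -0.20 became 0.03 under quantile normalization, so that 6 of 8 genes were then below 0. Quantile normalization sets values by rank, and TRPC1 ranked 10659 at 2 cm and 10637 at 50 cm. In its group of features by level, 46.7% had lower log2 ratios than TRPC1, so its ratio lay near the middle of that group. Features above 1 FPKM numbered 11394 at 2 cm and 11199 at 50 cm. The cause of the lower FPKM at this level was not tested. In the other lists, the calcium genes lower by 2-fold became 1, NFATC4, in place of 0. This held at a minimum of 0.1, of 0.5 or of 1 in at least 1 culture. A minimum of 5 left 0 genes of the list of other channels and their subunits lower in place of 1, since it removed TMIE. At 1.5-fold, 1 partner gene was higher. Lower at that fold were 1 calcium gene and 2 genes of the list of other channels and their subunits, TMIE and TMC5. No paired analysis was possible because each group is 1 culture, and for the same reason no culture could be left out. The precision of each FPKM value is unknown, since the files hold no counts.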
